A study of Homo sapiens with 4 samples.

Results

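The SR proteins and the heterogeneous nuclear ribonucleoproteins (hnRNPs) are RNA-binding proteins that decide which exons a transcript keeps. The genes described here are the 37 listed members of the SRSF, TRA2, HNRNP and PTBP families: 12 SRSF, 2 TRA2, 20 HNRNP and 3 PTBP genes, of 57820 genes in the count files. They were listed by family name, with earlier results of these data known. A count row could be paired with 36 of them, and SRSF8 was not analysed here. Introns could be placed for 34, all but SRSF8, HNRNPA0 and HNRNPH2, and a cassette exon (an exon that is either kept or skipped between its neighbours) could be tested in 33.

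The libraries come from HEK293T, a line derived from human embryonic kidney, transfected with a plasmid for SF3B1, a subunit of the U2 snRNP that binds the intron branch point. Each of the 4 libraries received a different plasmid: the wild-type form (WT), or a form changed by R625H, by K666T or by K700E. Per the labels, 1000 ng of plasmid went into R625H and K666T cells and 2000 ng into K700E cells, with none stated for WT. Values for 4 libraries stand in the order WT, R625H, K666T, K700E throughout, and values for 3 in the same order without WT. As far as the labels say, all 4 groups also keep the cells' own SF3B1. There was 1 library per plasmid, so no difference has a replicate check: the tests below compare libraries, not conditions, and intervals cover counting error only.

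SR proteins bind exonic enhancers and mostly promote exon inclusion, whereas many hnRNPs, PTBP1 among them, bind silencers and often promote skipping. Many of these genes limit their own expression through a poison exon, an alternative exon whose inclusion brings in a premature stop codon, or moves an exon junction behind the normal stop, and sends the transcript to nonsense-mediated decay. For several SR proteins, excess protein is known to raise inclusion of the gene's own poison exon, which makes the exon a feedback switch.

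Among poison exons that are mostly skipped (a mean inclusion below 50%), those that passed the test moved in 1 direction. Of 22 such exons in 15 member genes, 9, 11 and 12 rose against WT, and none fell. The direction was not particular to members: in other genes 21, 50 and 49 such exons rose and 0, 0 and 3 fell. Transcript levels of the member genes stayed within 1.5-fold of WT. Exons of coding transcripts mostly fell where they changed, as did exons over all genes.

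The reading frame that a poison exon adds before its stop codon differed in length between genes. Each sequence below is the coding stretch that 1 poison exon adds, from its first base to the first in-frame stop codon, which is in capitals, taken from GENCODE release 29 transcripts annotated as targets of decay. Inclusion of each exon shown was higher in at least 1 mutant library, but not every such exon is shown. The 268-nt exon of SRSF6, higher in K700E, adds 152 nt up to its stop codon. The 276-nt form of the SRSF7 exon adds 22 nt.
SRSF3 exon of 456 nt: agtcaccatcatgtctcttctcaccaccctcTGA
SRSF7 exon of 449 nt: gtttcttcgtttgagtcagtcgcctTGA
TRA2B exon of 276 nt: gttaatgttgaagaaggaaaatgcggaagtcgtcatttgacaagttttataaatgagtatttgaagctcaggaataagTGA
HNRNPH1 exon of 134 nt: cgttggtaacggaaagcgacctgTAA
HNRNPL exon of 70 nt: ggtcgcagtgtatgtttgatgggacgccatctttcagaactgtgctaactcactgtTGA
HNRNPLL exon of 83 nt: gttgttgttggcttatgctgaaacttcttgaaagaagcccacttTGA

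The added frame was 34 nt in SRSF3 and 28 nt in SRSF7, so the stop comes near the start of these long exons, whereas in HNRNPL it takes up 59 of 70 nt. The exons of HNRNPD, HNRNPDL and SRSF2 lie behind the stop codon of their transcripts, and no sequence is printed for them. Inclusion below is the percent of reads that join the exon to its neighbours among those that join or skip it, and "rose" and "fell" are used of shares with a Benjamini-Hochberg adjusted p under 0.05, from Fisher's exact test (two-sided), over all exons of all genes.

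Libraries were deep and alike in size. Reads assigned to genes ranged from 82254731 in R625H to 90939945 in WT, and uniquely mapped junction reads from 65939159 to 71945311. WT had the lowest share of unmapped pairs, 8.84% against 15.2 to 17.3% in the mutant libraries. All comparisons with WT share that 1 library, and the part of this gap in the results was not tested. Of the HEK293T markers, NEFM had 27070 to 38908 reads, LIN28B 12519 to 13818 and PAX2 150 to 220. Of the markers of other cell types, PTPRC (leukocytes) had at most 8 reads and ALB (hepatocytes) at most 35, while COL1A1 (fibroblasts) had 1715 to 2110. NEFL and PECAM1 were not matched to a row. In such bulk samples, fewer cells that express a gene and less RNA per cell cannot be told apart. Genes of these families with processed pseudogenes, such as HNRNPA1, may share reads with those copies, so their values are uncertain.

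Transcript levels differed little between the libraries. None of the 36 members was 1.5-fold from WT in any mutant library, where 2.09% of all 14847 genes passed that fold for R625H, 2.49% for K666T and 5.96% for K700E. The median log2 ratio of members to WT, in reads scaled to library size (CPM), was 0.04, 0.04 and 0.10, beside -0.02, 0.00 and 0.00 for all genes. Member ratios ranged from -0.10 to 0.29, from -0.10 to 0.45 and from -0.20 to 0.43. The comparison has no test, and the mutant libraries share the WT library.

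PTBP2, a neural paralogue of PTBP1, had the highest ratios in R625H and K666T, and in K700E TRA2A had the same log2 ratio of 0.43. Its level was 48.7, 59.6, 66.6 and 65.7 CPM, and its log2 ratios were 0.29, 0.45 and 0.43. WT was the lowest of the 4 libraries. TRA2B, which with TRA2A recognises purine-rich enhancers, had 287, 336, 341 and 343 CPM, so its 3 mutant libraries lay close together above WT. TRA2A had 153, 165, 175 and 207 CPM, and SRSF7, a zinc-knuckle SR protein, had 347, 377, 391 and 456. For both, K700E stood highest and the other mutant libraries lay between it and WT.

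At the other end, HNRNPA1, an abundant repressor of exon inclusion, had 1824, 1708, 1697 and 1795 CPM, a median log2 ratio of -0.10. HNRNPUL2 (35.5, 33.9, 34.1 and 35.2 CPM) and PTBP1, the main repressor of neural exons in non-neural cells (533, 506, 514 and 542), were also near level. SRSF9 had 272, 266, 268 and 236 CPM, and K700E alone was low. Each of the 4 lay at most 0.20 from WT on the log2 scale in every mutant library.

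Per length, HNRNPA1 was the most abundant member, at a mean of 345 CPM per kb of exon over the 4 libraries, followed by HNRNPK at 238 and HNRNPAB at 229. SRSF12, at 3.84 CPM per kb, and PTBP2, at 4.65, were the least abundant. By family, the median log2 ratios were 0.08, 0.12 and 0.11 for SRSF genes and 0.00, 0.03 and 0.05 for HNRNP genes.

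**Figure D1:**
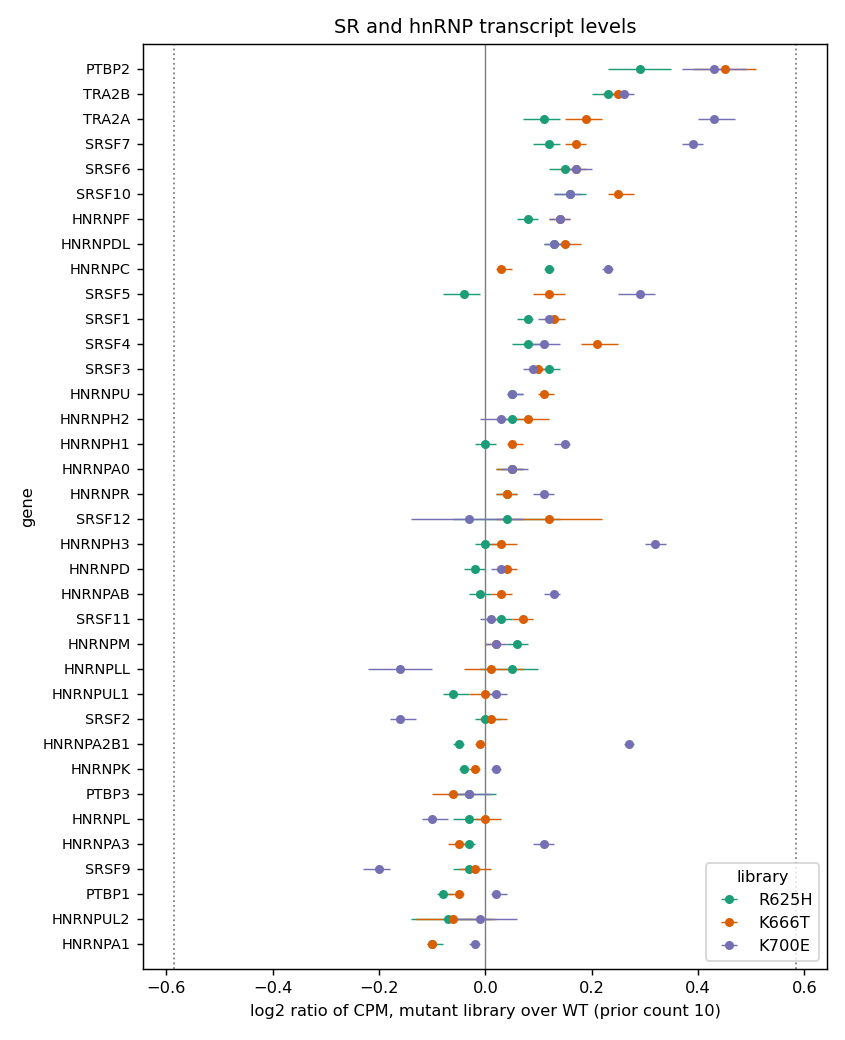
Log2 ratio of CPM of each mutant library over WT for the 36 members with a count row, ordered by the median of the 3 ratios; points are single libraries, bars 95% counting intervals, and dotted lines mark 1.5-fold. Every point lies inside the dotted lines, and PTBP2 and TRA2B are at the top, with HNRNPA1 at the bottom.

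Kinases that phosphorylate SR proteins, and other splicing regulators, were counted from a list of 50 genes, 48 of which reached 1 CPM in at least 1 library. ESRP1 did not reach it, and TAF15 was not matched to a row. None of the 48 was 1.5-fold from WT in R625H, 1 was higher by that fold in K666T, and 1 in K700E. Over all genes, 2.09, 2.49 and 5.96% passed that fold in either direction. CLK1, a nuclear SR protein kinase, was the K666T gene, with 59.6, 82.6, 92.6 and 88.2 CPM. Its paralogue CLK4 had 24.03, 29.99, 32.98 and 32.22 CPM, and the related kinase DYRK1A 75.8, 90.9, 98.7 and 98.7. WT was the lowest library for these 3 kinases, and also for CLK3, with 55.84, 62.01, 66.22 and 68.95 CPM. CLK2 and the cytoplasmic kinases SRPK1 and SRPK2 stayed within 0.14 of WT on the log2 scale. PNN, a nuclear speckle protein that binds SR proteins, was the gene past 1.5-fold in K700E, with 262, 322, 352 and 395 CPM.

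Poison exons were defined by annotation, as internal exons of a transcript annotated as a target of nonsense-mediated decay and of no coding transcript. Those with a mean inclusion below 50% over the 4 libraries are treated together, a limit set after the data were seen. The 9 exons that rose in R625H make up 9 of 22, where 0.275% of all cassette exons tested rose. In K666T 11 of 22 rose, beside 0.346% of all exons, and in K700E 12 of 22, beside 0.389%. The median difference from WT was 2.15, 3.62 and 1.98 percentage points. In other genes, 21 of 1850, 50 of 1859 and 49 of 1853 poison exons rose, with medians of 0.36, 0.40 and 0.47 points. There 0, 0 and 3 fell, so nearly all that passed the test rose in both sets.

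Members are read more deeply than most genes, which makes small differences easier to detect. Among poison exons with at least 500 reads in every library, 8, 10 and 11 of 20 member exons rose, beside 17, 33 and 32 of 540 in other genes. Median differences in this deeper set were 1.74, 3.51 and 1.91 points for members and 0.20, 0.21 and 0.25 points for other genes. Median depth was still 2748 reads in the member set and 1069 in the other set in R625H against WT.

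**Figure D2:**
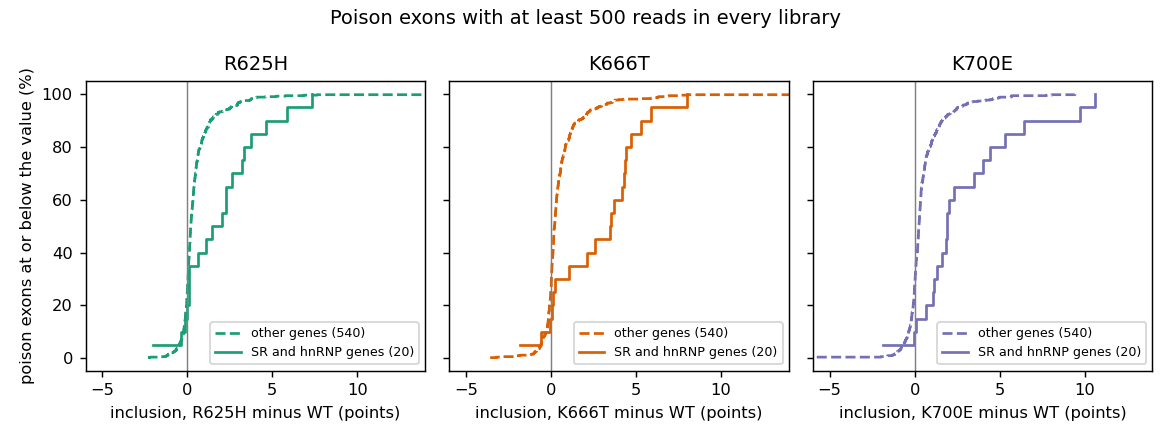
Cumulative percent of poison exons (vertical axis) at or below each inclusion difference from WT in percentage points (horizontal axis), for exons with at least 500 reads in every library; 1 panel per mutant library. The solid lines (20 exons of SR and hnRNP genes) lie to the right of the dashed lines (540 exons of other genes) over most of their range, with medians of 1.74, 3.51 and 1.91 points against 0.20, 0.21 and 0.25.

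Exons of 9 genes rose in every mutant library. The families differed in how many of their poison exons moved: 5 of 6 in HNRNP genes and 2 of 2 in TRA2 genes rose in each mutant library, and 2, 4 and 5 of 14 in SRSF genes. The SRSF exons lie in 7 genes, with 5 exons in SRSF4 alone, and the HNRNP exons in 6 genes. These counts are thus of exons and not of genes. The difference between families was not tested.

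HNRNPL, a repressor that binds CA repeats, has a 70-nt poison exon at chr19:39332253-39332322 (hg19). Inclusion was 1.58% (95% Wilson interval 1.27 to 1.95), 4.76% (4.16 to 5.44), 5.97% (5.31 to 6.69) and 6.03% (5.40 to 6.73), with adjusted p 2.56e-16, 1.66e-28 and 4.19e-30. All 3 mutant intervals lie above that of WT. In HNRNPLL, its paralogue in lymphocyte splicing, the 83-nt exon (chr2:38805062-38805144) went from 4.29% to 9.94, 15.0 and 12.3%, on 480 to 513 reads. The junction that enters it made up 3.51, 10.2, 14.5 and 9.98% of reads from its donor.

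HNRNPD (AUF1), which binds AU-rich elements, had a 107-nt exon behind its stop codon (chr4:83276048-83276154) at 2.54, 4.79, 6.02 and 6.57%. Its neighbour and paralogue HNRNPDL had a 105-nt exon (chr4:83346716-83346820) at 12.9, 18.8, 20.9 and 22.6%, with adjusted p of 6.99e-08, 4.74e-15 and 2.02e-20. Both exons were lowest in WT and highest in K700E. R625H was below K700E for both, with an adjusted p of 0.0454 for HNRNPD. The 134-nt exon of HNRNPH1 (chr5:179048844-179048977), which regulates exons through G runs, stayed rare but rose from 0.75% to 1.84, 1.80 and 2.68%. The 100-nt exon of HNRNPU had only 52 reads in WT, and its values of 5.77, 11.4, 9.68 and 10.0% did not pass the test.

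SRSF3, the smallest SR protein, is known to control its own level through its 456-nt exon (chr6:36567598-36568053). Inclusion was 4.51% (4.05 to 5.03), 7.14% (6.56 to 7.76), 9.84% (9.16 to 10.6) and 9.84% (9.14 to 10.6). R625H lay between WT and the other mutant libraries, and its difference from each of them passed the test. SRSF7 has a 449-nt exon (chr2:38976040-38976488) and a 276-nt form of it that shares its 5′ splice site. Both draw on the same reads to skip and on the same reads out of the exon, so their values are not separate results. With 1 exon per shared end, 9, 10 and 11 of 20 member poison exons rose. The long form had 4.40, 6.45, 7.93 and 7.89%, and the short form 1.48, 2.08, 3.59 and 2.79%. The short form did not pass the test in R625H.

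TRA2A and TRA2B both changed in every mutant library. The 276-nt exon of TRA2B (chr3:185649365-185649640) had inclusion of 4.96, 8.28, 9.24 and 7.27%. The 79-nt exon of TRA2A (chr7:23561973-23562051) had 6.29, 13.6, 12.2 and 16.9%, and K700E was the highest library. This exon lies before the stop codon of its annotated transcript. Longer forms of 301 and 312 nt, which share its 3′ splice site, gave 6.75 and 7.49% in WT and 17.6 and 19.5% in K700E. The 301-nt form, 10.85 points above WT in K700E, lies in a coding transcript and is not a poison exon as defined here. Reads of the shared entering junction count for every form, so the 79-nt value includes reads of the longer ones. TRA2A transcript level was also highest in K700E.

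Other SRSF exons moved less or in fewer libraries. SRSF2, which binds enhancers through both C-rich and G-rich motifs, had its 104-nt exon behind the stop codon (chr17:74731854-74731957) at 5.52, 6.94, 8.10 and 7.36%, and it rose in K666T and K700E. The 268-nt exon of SRSF6 (chr20:42087793-42088060) had 16.6, 14.6, 20.3 and 23.02% and rose in K700E. R625H, at 14.6%, was the lowest library there and was below K700E by the test.

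Of 5 exons of SRSF4, none passed. Its 136-nt exon stood at 6.87, 11.5, 11.0 and 8.77%, its 175-nt exon at 8.16, 10.4, 12.5 and 9.22% and its 184-nt exon at 8.11, 11.9, 12.8 and 9.71%. WT was the lowest library for these 3. All 3 lie in the same annotated transcript, and their skipping reads were nearly the same (732, 732 and 736 in WT), so their values are not separate results. The 195-nt exon had 2.31, 2.39, 2.25 and 4.35%, and the 228-nt exon, which shares its 5′ splice site, 1.40, 1.36, 1.49 and 2.56%, so that only K700E stood above the others.

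SRSF11 was the exception in level: its 117-nt exon, included at 22.9, 22.7, 22.2 and 23.6%, was near level, and its 109-nt exon had 7.28, 6.88, 5.47 and 5.44%, lower in the mutant libraries without passing the test. The 69-nt exon of SRSF7 (0.21, 0.32, 0.45 and 0.19%) and the 90-nt exon of SRSF9 (0.08, 0.18, 0.20 and 0.14%) were almost always skipped.

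**Figure D3:**
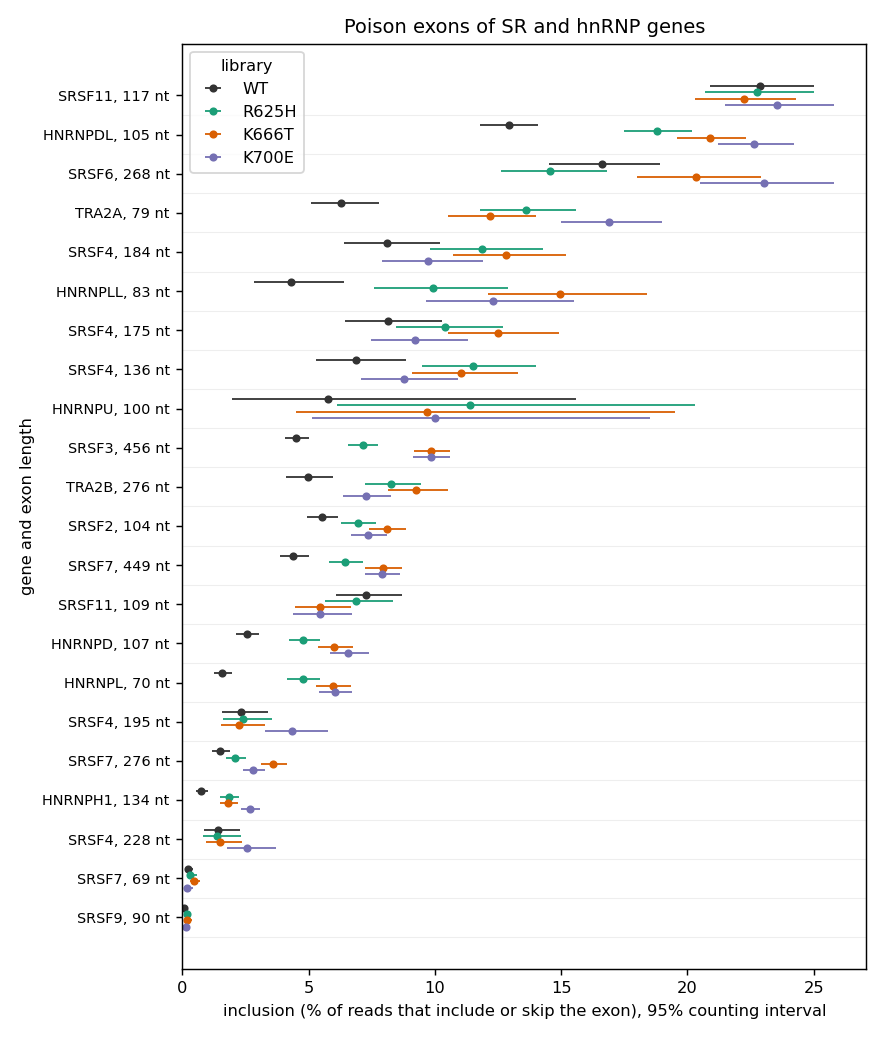
Inclusion (percent of reads that include or skip the exon) of the 22 poison exons with a mean below 50%, ordered by that mean; points are single libraries and bars 95% Wilson counting intervals. WT (black) is the leftmost point for 16 of 22 exons, with gaps between intervals for HNRNPDL, HNRNPD, HNRNPL and SRSF3, while the 117-nt exon of SRSF11 shows 4 overlapping intervals.

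Mutant libraries were also compared with each other over the same 22 exons. R625H was below K666T for 2 exons (SRSF3 and the short form of SRSF7) and below K700E for 4 (SRSF3, SRSF6, HNRNPD and HNRNPDL), and no exon went the other way. Over all exons, R625H was below K666T for 0.115% and above it for 0.213%, and below K700E for 0.204% and above it for 0.721%. K666T and K700E differed for none of the 22 at an adjusted p under 0.05, beside 0.237% of all exons lower and 0.466% higher in K666T. Plasmid amount differed between K700E and the others, so amount and substitution cannot be told apart for K700E.

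Annotated poison exons with a mean inclusion from 50% upwards were 14 in number, and 13 were tested against WT. Of these 1, 1 and 0 rose, beside 0.275, 0.346 and 0.389% of all exons, and 0, 1 and 3 fell, beside 0.848, 1.62 and 3.08%. Counts this small were not tested for a difference from the mostly skipped exons. The 203-nt exon of SRSF1, the founding SR protein, had 97.1, 96.4, 94.5 and 93.7% and fell in the last 2. It holds 195 coding nt up to its stop codon and is kept in nearly all reads. Its place in this class rests on the annotation alone, and a premature stop was not shown. The 113-nt exon of HNRNPH1 fell in K700E, from 99.5 to 98.0%.

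HNRNPA2B1, an abundant partner of HNRNPA1 in nuclear RNA binding, had the exon that separated the mutant libraries most. This 136-nt exon behind its stop codon (chr7:26230613-26230748) was included at 53.6% (50.6 to 56.6), 62.4% (59.2 to 65.4), 67.7% (65.1 to 70.3) and 44.6% (42.1 to 47.1), on 946 to 1499 reads. It rose by 8.78 points in R625H and 14.2 in K666T and fell by 9.02 in K700E, adjusted p 0.0117, 2.48e-09 and 6.27e-04. K700E was therefore below WT and the other 2 were above it. HNRNPA2B1 transcript level was 1824, 1761, 1816 and 2194 CPM, highest in K700E.

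Over all 294 member cassette exons tested, changes of at least 10 points with an adjusted p under 0.05 were few. No exon was called in R625H, 3 in K666T and 4 in K700E, beside 0.137, 0.202 and 0.549% of all exons. Those in K666T were the HNRNPLL and HNRNPA2B1 exons above and a 92-nt exon of HNRNPH1, and those in K700E the 3 forms of the TRA2A exon and the same HNRNPH1 exon. Between mutant libraries the HNRNPA2B1 exon was the 1 call in R625H against K700E and in K666T against K700E, beside 0.128 and 0.0923% of all exons, and there was none in R625H against K666T, beside 0.0132%.

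At any size of difference, falls outnumbered rises in members and over all exons. Members that rose numbered 14, 20 and 17 of 294, while over all exons 187, 236 and 265 rose and 577, 1105 and 2101 fell. In R625H 29 member exons fell, beside 0.848% of all exons. In K666T 38 fell, beside 1.62%, and in K700E 56 fell, beside 3.08%. Exons of coding transcripts made up nearly all of these: 28, 37 and 52 of 249 fell and 2, 6 and 3 rose. With at least 500 reads in every library, 28, 37 and 52 of 217 fell in members and 390, 713 and 1234 of 16970 in other genes. HNRNPH1, HNRNPC and HNRNPH3 held the most, with 9, 7 and 5 exons that fell in K700E.

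HNRNPH1 held the steepest falls in K666T and K700E, while in R625H the 171-nt exon of HNRNPDL changed by -7.75 points and the 92-nt exon of HNRNPH1 by -6.33. This HNRNPH1 exon (chr5:179046270-179046361) was included at 77.7% (76.2 to 79.2), 71.4% (69.6 to 73.1), 66.7% (65.0 to 68.4) and 65.0% (63.3 to 66.6). No mutant interval reached that of WT. The 139-nt form of the same exon, with an earlier 3′ splice site, had 87.3, 83.2, 79.9 and 77.6%, and both forms have lengths that are not divisible by 3. Exons of 179 nt (93.4, 90.7, 89.4 and 85.7%) and 72 nt (94.4, 92.8, 91.7 and 89.0%) of the same gene were lowest in K700E as well.

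Its paralogue HNRNPH3 had a 139-nt exon (chr10:70097615-70097753) at 91.2, 86.6, 83.4 and 82.9%, with a fall in each mutant library. The 171-nt exon of HNRNPDL (chr4:83347616-83347786), in frame, fell from 93.2% to 85.4, 84.6 and 86.1%, adjusted p 8.82e-23, 6.00e-28 and 1.84e-19. HNRNPDL thus had a coding exon that was skipped more and a poison exon that was included more in the same 3 libraries.

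HNRNPC, a binder of uridine tracts, had a 272-nt exon outside the coding sequence at 71.9, 67.3, 67.2 and 68.3%, which fell in all 3 mutant libraries. HNRNPD, whose 147-nt exon separates its isoforms, had 43.0, 39.3, 38.5 and 40.6% and fell in R625H and K666T. HNRNPR had a 169-nt exon at 36.5, 34.9, 32.2 and 28.3% and a 166-nt form at 36.1, 36.4, 33.8 and 29.2%, both of which fell in K700E.

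The PTBP genes are controlled by a 34-nt exon whose skipping, rather than inclusion, leads to decay. In PTBP1 (chr19:807869-807902) it was kept at 98.1, 97.2, 97.4 and 95.2% and fell in K700E, adjusted p 7.95e-05. In PTBP2 (chr1:97271975-97272008), where PTBP1 is known to repress it, 82 of 164 reads included it in WT, and 38.05, 38.5 and 36.1% of 205, 260 and 180 reads did in the mutant libraries. WT was the highest library, yet the adjusted p values were 0.482, 0.330 and 0.182, so the PTBP2 difference was not detectable at this depth. PTBP2 transcript level was lowest in WT, as given above.

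**Figure D4:**
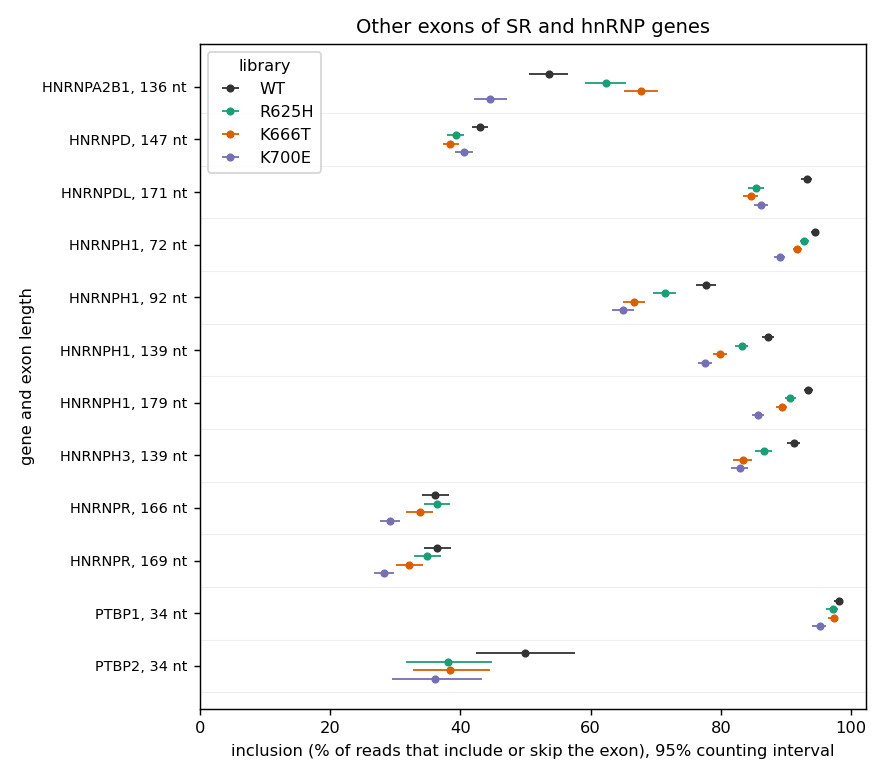
Inclusion (percent of reads that include or skip the exon) of coding exons of SR and hnRNP genes with a difference of at least 4 points that passed the test, the 34-nt exons of PTBP1 and PTBP2, and the 136-nt exon of HNRNPA2B1; points are single libraries and bars 95% Wilson counting intervals. WT (black) lies to the right of the mutant libraries for the HNRNPH1, HNRNPH3 and HNRNPDL exons, while for HNRNPA2B1 it lies between K700E and the other 2.

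Upstream shifts of the 3′ splice site by 10 to 30 nt are the change that SF3B1 mutation is best known for. Among member acceptor pairs, 9 of 195, 8 of 196 and 12 of 200 were called in either direction, beside 2.67, 2.36 and 2.34% of all pairs. The upstream share was higher than in WT for 8, 6 and 6 of the member calls and lower for 1, 2 and 6. Over all genes it was higher for 394, 319 and 315 called pairs and lower for 211, 216 and 217. Of the 17 pairs called in at least 1 mutant library, 16 involve an acceptor missing from the annotation, and 1 had both acceptors read in all 4 libraries. Restricted to pairs read in all 4 libraries, 1, 0 and 0 of 37 were called, beside 4.44, 3.26 and 3.15%.

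That pair lies in PTBP1, 20 nt apart with both acceptors annotated (chromosome 19, last intron bases 808359 and 808379). The upstream acceptor took 74.0% of 50 reads, 95.6% of 45, 85.7% of 49 and 81.1% of 90, and the call was that of R625H. In SRSF2, an unannotated acceptor 16 nt downstream of an annotated one was read in WT alone, so the upstream share was 70.8% in WT and 100% in each mutant library. HNRNPDL had the same pattern 23 nt apart, with 77.6% in WT and 100% in the others. In HNRNPH1, at 2 unannotated acceptors 10 nt apart, the upstream share was 23.5% in WT and 100% in the others. In TRA2B the pattern was reversed, with 100% in WT and K666T and 45.0 and 32.5% in R625H and K700E. A junction that a file does not list was taken as 0 reads.

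The other called pairs also rest on acceptors read in some libraries only. They lie in HNRNPA2B1 (3 pairs), SRSF4 (3 pairs), HNRNPA3, HNRNPH3, SRSF3, SRSF7 and TRA2A. One of the HNRNPA2B1 pairs stood at 100% in WT, R625H and K666T and at 65.8% in K700E, and an HNRNPH3 pair at 100, 100, 32.8 and 28.6%. TRA2A had 0, 45.7, 75.4 and 0%, SRSF7 had 0, 6.45, 0 and 35.2%, and HNRNPA3 had 43.0, 100, 100 and 42.4%. A pair of SRSF4 had 0, 100, 8.70 and 64.5%, and SRSF3 had 31.2% in WT and 100% in K666T and K700E, with no read in R625H. A second pair in PTBP1 stood at 77.8, 100, 87.5 and 82.5%.

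Choice among all acceptors of a donor gave 30, 42 and 44 called junctions of 1584, 1649 and 1674 in members, beside 0.698, 0.711 and 0.872% of all junctions. They came to 82 different junctions in 18 genes, 60 of them unannotated. Genes with unannotated ones alone were HNRNPA1, HNRNPH3, HNRNPM and SRSF11. In HNRNPM, a junction read in K700E alone took 11.5% of its donor there, and in HNRNPH3 another such junction took 35.3%. An unannotated junction of SRSF11 took 0, 1.54, 0 and 40.5%, and one of HNRNPA1 took 0, 42.9, 0 and 51.1%. Other unannotated junctions of these genes went the other way, such as one of HNRNPA1 with 100% in WT and 8.58% in K700E. Among annotated junctions read in all 4 libraries, 7, 12 and 11 of 465 were called, beside 0.795, 0.770 and 1.10%.

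Several of these belong to exons described above. At the donor before the HNRNPDL poison exon, the junction into that exon took 15.7, 22.4, 25.7 and 29.3% of reads. The junction that skips the 171-nt HNRNPDL exon took 7.88, 16.8, 18.0 and 16.7%. In TRA2A, the junction into the poison exon, which its longer forms share, took 8.36, 17.4, 15.2 and 20.6%. In HNRNPH1, the junction into the 139-nt form took 85.3, 81.0, 77.1 and 73.4%, and was called in K700E.

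Other calls fall outside these exons. In SRSF1, a junction behind the 119-nt exon took 87.1, 76.3, 76.8 and 80.9% of reads from its donor and fell in R625H and K666T. In SRSF10, which can repress splicing when dephosphorylated, a junction between 2 poison exons took 100, 92.9, 89.1 and 89.5%. HNRNPD had a junction at 44.9, 29.3, 19.7 and 27.7%, called in K666T. HNRNPA2B1 had an annotated junction at 78.1, 79.4, 99.2 and 99.7%, called in K666T and K700E, but its alternative ends 2 nt away and is not annotated, so the alignment of these reads is uncertain.

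The other 11 annotated calls start at donors that also had a called unannotated junction. That of HNRNPA2B1 is given above. In SRSF2 the annotated junction took 70.8, 100, 96.8 and 100% of its donor and was called in all 3 mutant libraries. The others lie in HNRNPA3, HNRNPC, HNRNPH1, HNRNPL, SRSF4, SRSF7 and TRA2A. HNRNPC had 81.9% of 105 reads in WT and 100% in every mutant library, and SRSF7 had 100, 100, 67.2 and 99.3%. HNRNPH1 had 100, 79.8, 66.3 and 74.3%, called in K666T and K700E. In R625H alone, calls were made in SRSF4 (84.5, 58.9, 64.9 and 63.0%), TRA2A (100, 56.7, 100 and 100%) and HNRNPL (67.7, 22.0, 55.3 and 47.8%). A second junction of HNRNPL had 98.1, 99.6, 86.0 and 98.9%, and K666T stood apart. HNRNPA3 had 91.7, 71.0, 77.0 and 95.7% at one donor, called in R625H, and 53.8, 37.5, 22.7 and 12.7% at another, called in K700E.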

How the data were processed

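The authors deposited read counts per gene and read counts per splice junction for each of the 4 libraries, as raw numbers. Alignment used STAR 2.5.3a and HTSeq with hg19/GRCh37, per the submitters' processing notes; the annotation release is not given there. Gene counts were taken from column 4 (the strand that a stranded kit implies), scaled to reads in genes, and compared as log2 CPM ratios with a prior count of 10 for genes with at least 1 CPM in at least 1 library. The 4 rows that name no gene were left out (unmapped pairs are given with the results). The deposited overhang, in nt (unit other), was used in 1 alternative.

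Exons of GENCODE release 29 were placed on the hg19 junctions by the lengths and order of introns. At least 2 introns and 50% of those annotated were needed, and 14669 of 18228 protein-coding genes were placed. As a check, each gene was also tried on a wrong chromosome, where 25 genes of any type met these rules, beside 17230 on their own chromosome. The matches on a wrong chromosome were not used. Exons of 10 to 500 nt with at least 20 reads in both libraries were compared. Inclusion reads were the mean of the junctions into and out of the exon, rounded down. Calls required both 10 percentage points and an adjusted p under 0.05. Named genes were those with a called exon, acceptor or junction, the 4 highest and 4 lowest median ratios, and each poison exon with 20 reads in every library. Members, lists and the 50% limit were chosen with earlier results of these data known. Tests were checked on simulated data. Python 3.11.15, numpy 2.4.6, pandas 2.3.3, scipy 1.17.1 and numba 0.67.0 were used.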

Additional observations from a re-analysis of the deposited data

Results flagged for a closer look

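The 136-nt exon of HNRNPA2B1 differed between mutant libraries. Inclusion was 17.80 points higher in R625H than in K700E and 23.17 points higher in K666T than in K700E, both with an adjusted p under 0.05 by Fisher's exact test between single libraries. Its reads numbered 946 in R625H, 1221 in K666T and 1499 in K700E. K700E cells received 2000 ng of plasmid and the other mutants 1000 ng, so amount and substitution cannot be told apart.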

How the results depend on the processing

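With 1 library per group, neither replicate error nor a left-out library can be assessed. No paired analysis was possible because each group holds 1 library. No member passed the fold limit under any of the 7 alternatives for transcript level. Several of these could hardly change that count. A limit of 2-fold is stricter, and a prior count of 1 and other filters on low counts left the member ratios as they were. Unstranded counts and other ways to scale library size could have changed it. Counts of member cassette exons called, 0, 3 and 4 against WT, stayed the same at 50 reads and at an overhang of 20 nt. They were 8, 11 and 16 at 5 points, 6, 10 and 14 with multi-mapped reads added, and 16, 15 and 27 with all exons read in the files. Between mutant libraries, main counts of 0, 1 and 1 (R625H against K666T, R625H against K700E, K666T against K700E) became 0, 6 and 2 at 5 points, 1, 5 and 6 with multi-mapped reads, and 17, 14 and 27 with all exons. Acceptor pairs called fell from 9, 8 and 12 to 5, 5 and 7 at 50 reads and to 1, 0 and 0 where both acceptors were read in all 4 libraries, and came to 24, 25 and 37 with multi-mapped reads. For the altered thresholds, multi-mapped reads and added exons, shares over all exons or pairs were not computed. Whether members changed more than other genes at these settings is therefore not known. Junctions at a donor came to 7, 12 and 11 instead of 30, 42 and 44 where annotated and read in all 4 libraries. The cause was not tested. Counts of poison exons that rose stayed within 1.5 times under 6 alternatives added after the data were seen, from 7 to 10 in R625H, 10 to 13 in K666T and 10 to 12 in K700E. With the junction into the exon alone, 1 exon fell in K666T and 1 in K700E.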
